A study of Mus musculus with 12 samples.

Results

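The 10 genes described here encode elastin and proteins of the microfibrils that surround it, and were chosen by name: *Eln*, *Fbn1*, *Fbn2*, *Fbln1*, *Fbln2*, *Fbln5*, *Efemp1*, *Emilin1*, *Mfap4* and *Mfap5*. The choice was made with earlier results of these data known, so counts of called members beside shares of all genes are descriptions. All 10 were found, each with 1 gene identifier in every table, of 28995 genes in the 3 tables together. RNA was sequenced from primary fibroblasts of the hindlimb skeletal muscle of wild-type C57BL/10 mice at postnatal day 3, at passage 2, kept for 24 hours in charcoal-stripped serum to take away endogenous steroids. The cells then received 1 µM aldosterone, an agonist of the mineralocorticoid receptor, 1 µM spironolactone, an antagonist of that receptor, or the vehicle, 0.01% DMSO that all 3 groups carried, for 48 hours. Each treatment had 4 libraries, from cells of 2 mice on 2 replicate plates per mouse. The comparison of aldosterone with vehicle asks what aldosterone at this dose changes in the fibroblasts, and the spironolactone group checks for steroids left in the serum. No library combined aldosterone with an antagonist, so the part of the receptor in these changes was not tested.

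Elastic fibres give stretch and recoil to tissues such as vessel wall, lung, skin and the connective tissue of muscle. Fibroblasts secrete tropoelastin, the product of *Eln*, which is laid onto microfibrils built of fibrillins, carried there by fibulins and other adaptor proteins, and cross-linked by lysyl oxidases into an insoluble core. Microfibrils also hold latent TGF-beta in the matrix, and integrins on the cell surface bind several of the same proteins.

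The titles give each library a pair of numbers, the sample number and the biological replicate number, both 1 or 2, but no label ties either to a mouse. P-values therefore measure the spread between these 4 plates of 2 mice, part of which may be technical. Libraries held between 19136923 and 30219185 reads on genes. *Fkbp5* and *Tsc22d3*, known targets of steroid receptors, were higher with aldosterone by 4.26 and 2.69 on the log2 scale, and no aldosterone library overlapped a vehicle library for either gene. Of the 8 fibroblast markers, all had a mean of at least 1 read per kilobase and per 1000000 reads on genes (RPKM) in every treatment. *Ptprc* did not exceed 0.00381 RPKM in any library, *Pax7* did not exceed 0.03 RPKM and *Pecam1* did not exceed 0.07. Other genes of these macrophage, myogenic and endothelial lists were higher, with *Lyz2* up to 6.37 RPKM, *Des* up to 1.48 and *Tek* up to 5.04. Of the endothelial list, *Kdr* lay higher with aldosterone than with vehicle (0.432 to 1.08 against 0.102 to 0.348 RPKM). *Pecam1* lay lower (0.0123 to 0.0251 against 0.0331 to 0.0673), and *Tek* and *Cdh5* overlapped. The summed level of the 8 fibroblast markers ran from 5719 to 6298 RPKM with aldosterone and from 6480 to 7041 with vehicle, that of 3 tendon markers from 79.8 to 86.4 against 109 to 123, that of 4 endothelial markers from 5.34 to 5.69 against 4.12 to 4.53, and that of 5 mural or smooth muscle markers from 841 to 1242 against 1108 to 1557. The fibroblast markers did not move together: *Col1a1* (2537 to 3061 against 3516 to 3881 RPKM) and *Col3a1* (345 to 374 against 473 to 515) lay lower with aldosterone and without overlap, *Vim* (1605 to 1734 against 1190 to 1275) and *Pdgfra* (22.4 to 26.1 against 12.0 to 14.2) lay higher and without overlap, and the other 4 overlapped. Most of the mural sum came from *Acta2* (782 to 1155 RPKM with aldosterone, 1027 to 1437 with vehicle). *Rgs5* did not exceed 2.54 RPKM and *Myh11* 10.4 in any library, and each of the 5 mural markers overlapped between aldosterone and vehicle. With spironolactone the sums of the fibroblast, tendon, endothelial and mural lists ran from 6103 to 6739, from 105 to 118, from 3.91 to 4.49 and from 1169 to 1655. The sum of 3 cartilage markers ran from 172 to 346 RPKM with aldosterone and from 120 to 266 with vehicle, and those of the macrophage, myogenic and Schwann cell lists did not exceed 7.63, 1.61 and 0.925 RPKM in any library. Fewer cells of a type and less RNA per cell cannot be told apart in bulk RNA, and the part of these markers in the results on elastic fibre genes was not tested.

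The elastic fibre and microfibril genes took between 0.644% and 0.84% of all reads on genes in a library. Their levels per length, as RPKM, spanned a wide range in vehicle. *Fbln2* was the highest at 309 ± 44.6 RPKM (SD, n = 4), followed by *Fbn1* at 216 ± 22.6, *Efemp1* at 125 ± 10.0, *Eln* at 112 ± 1.65 and *Fbln5* at 83.9 ± 1.46. By vehicle RPKM, *Fbln2* ranked 88 and *Fbn1* 147 among all genes, and *Eln* ranked 333. The 4 vehicle libraries of each of these genes lay above all 4 of the next in that order. *Mfap5* at 49.3 ± 8.91, *Emilin1* at 47.6 ± 3.08 and *Fbn2* at 41.0 ± 6.84 came next, and the ranges of neighbours in this trio overlapped. *Fbln1* at 13.9 ± 0.607 and *Mfap4* at 12.7 ± 0.937 were lowest, and their ranges overlapped too. The vehicle level of *Fbn1*, the main fibrillin of postnatal tissue, was thus 216 RPKM beside 41.0 for *Fbn2*, the fibrillin associated with development.

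The order was the same with spironolactone, where only the ranges of *Efemp1* and *Eln* newly overlapped. With aldosterone *Mfap5* (58.1 ± 9.95 RPKM) stood above *Fbln5* (50.7 ± 2.45), with overlapping libraries. *Mfap4* at 6.66 ± 0.966 no longer reached the lowest library of *Fbln1*, at 12.4 ± 0.388. Levels of *Fbln2* (374 ± 68.6 RPKM), *Fbn1* (229 ± 32.7), *Efemp1* (147 ± 2.55), *Eln* (86.2 ± 17.4), *Emilin1* (36.3 ± 3.68) and *Fbn2* (27.9 ± 4.77) kept their order. The plot of levels by library shows the same values with the sample number of each library.

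**Figure D1:**
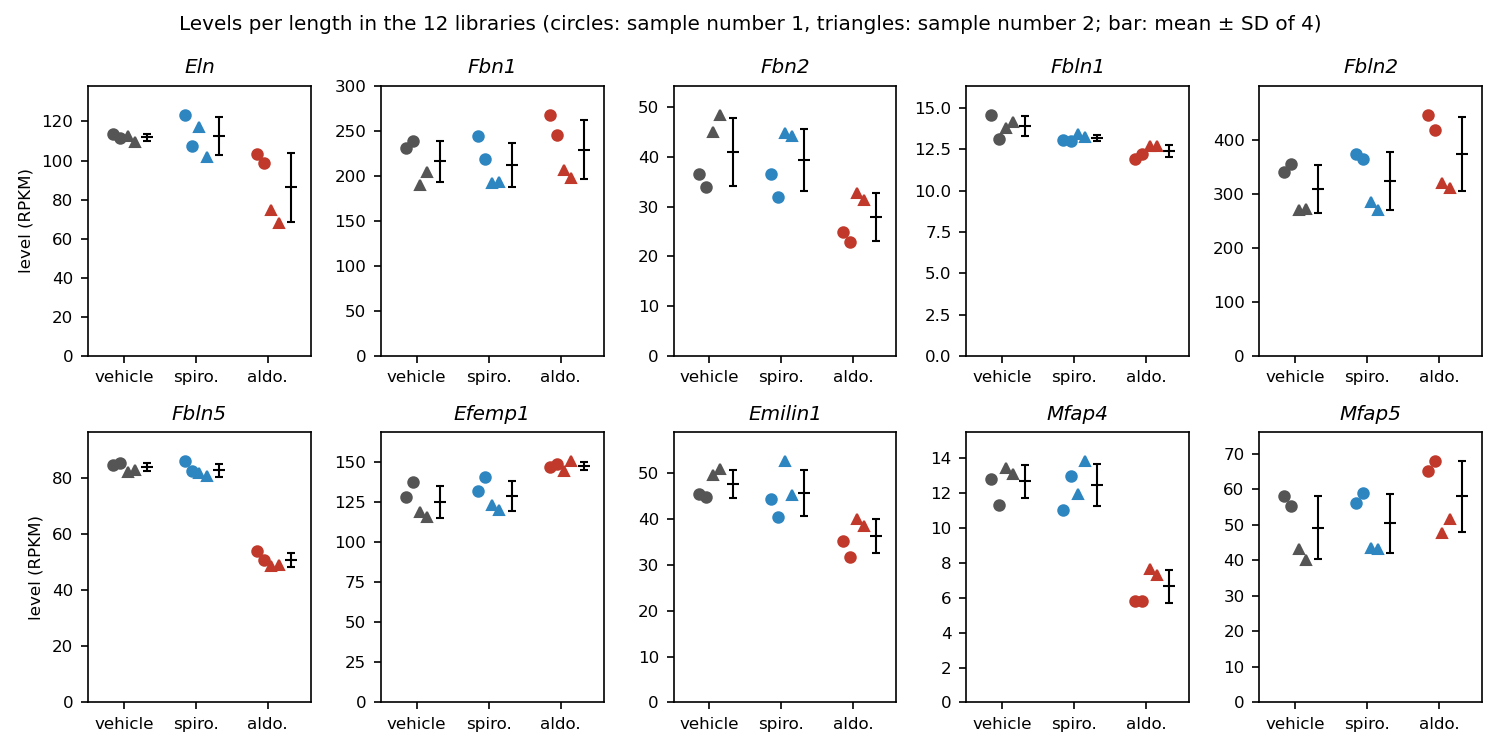
Level of each of the 10 genes per library, as RPKM, from 0 on every axis. Points are libraries (circles for sample number 1, triangles for sample number 2), and the bar is the mean ± SD of 4 libraries. Aldosterone libraries of Fbln5, Mfap4, Emilin1 and Fbln1 lie below every library of the other treatments, and those of Efemp1 above. Within each treatment circles and triangles separate for Fbn1, Fbn2, Fbln2, Mfap5, Fbln5 and Emilin1.

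Aldosterone against vehicle gave a mixed picture of elastic fibre genes. *Mfap4*, *Fbln5*, *Fbn2* and *Emilin1* fell and *Efemp1* rose, while *Eln*, *Fbn1*, *Fbln1*, *Fbln2* and *Mfap5* did not pass the test, limma on log2(normalized count + 1) at an adjusted p of at most 0.05. Of all 27319 genes, 5.68% were called higher and 4.74% lower, or 9.65% and 8.09% of the genes whose mean was at least 10 normalized counts, beside 1 of 10 and 4 of 10 here. None of the 10 reached an absolute log2 fold change of 1 together with the adjusted p, as 2.06% of all genes did. The median log2 difference over the 10 genes was -0.24, beside -0.01 over all genes. Every aldosterone library was below every vehicle library for 6 of the 10, including *Eln* and *Fbln1*, as for 6.9% of all genes, and above for 1 of 10, as for 7.55%.

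*Mfap4*, a fibrinogen-related protein that binds tropoelastin and fibrillin-1, showed the largest difference of the 10. In the table of aldosterone and vehicle its normalized counts were 278, 276, 353 and 334 with aldosterone (sample number 1 first, then sample number 2, the order used throughout) and 592, 514, 603 and 588 with vehicle. All aldosterone libraries were well below the lowest vehicle library. The means were 310 ± 39.2 and 574 ± 40.6 (SD, n = 4), a fold of 0.538 and a log2 difference of -0.89 (SE 0.0945, adjusted p = 6.49e-06 by limma). The gene lies on chromosome 11 from 61376257 to 61379726, plus strand, in mm39, the build in the submitters' processing notes.

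*Fbln5*, whose product fibulin-5 tethers tropoelastin to microfibrils and to integrins, came next. Its normalized counts were 9232, 8687, 8051 and 8056 with aldosterone and 14036, 13971, 13287 and 13371 with vehicle. The spread within each treatment was small beside the gap between them. The fold was 0.622, with a log2 difference of -0.69 (SE 0.0576, limma adjusted p = 4.26e-07). *Fbln5* is on the minus strand of chromosome 12, from 101712824 to 101785314 (mm39). Both *Mfap4* and *Fbln5* stayed below the threshold when any of the 8 libraries was left out, with adjusted p up to 0.00419 and 0.000803 by limma.

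*Emilin1*, a glycoprotein at the interface of elastin and microfibrils, was at 4296, 3846, 4719 and 4498 normalized counts with aldosterone and at 5378, 5215, 5711 and 5861 with vehicle. The highest aldosterone library remained below the lowest vehicle library. Its log2 difference was -0.36 (SE 0.0654, limma adjusted p = 0.00154), with adjusted p up to 0.0397 without any single library. *Emilin1* spans 31070746 to 31078621 on the plus strand of chromosome 5 (mm39).

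*Fbn2*, on chromosome 18, had 8129, 7471, 10350 and 9814 normalized counts with aldosterone and 11602, 10625, 13913 and 14916 with vehicle. The groups did not overlap, although the aldosterone libraries of sample number 2 came close to the vehicle libraries of sample number 1. The log2 difference was -0.51 (SE 0.109, limma adjusted p = 0.00493). The call was lost in 7 of the 8 fits without 1 library and stayed only without vehicle library 2 of sample number 1, and the adjusted p ranged from 0.0407 to 0.124 by limma while the difference stayed between -0.60 and -0.43.

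*Efemp1*, which encodes fibulin-3, was the called member that was higher with aldosterone. Its normalized counts were 7384, 7459, 7042 and 7252 with aldosterone and 6258, 6621, 5633 and 5477 with vehicle. The aldosterone libraries lay close together and all above the vehicle libraries. The means were 7284 ± 183 and 5997 ± 536 (SD, n = 4), a fold of 1.22 and a log2 difference of 0.28 (SE 0.0623, limma adjusted p = 0.00617). Without 1 library the adjusted p ran from 0.0122 to 0.0702 by limma, and the call stayed in 2 of 8 such fits, those without vehicle library 1 or vehicle library 2 of sample number 1. The gene lies from 28803204 to 28876743 on the plus strand of chromosome 11 (mm39).

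Among the members that did not pass, *Fbln2* had 70236, 65816, 48836 and 46980 normalized counts with aldosterone and 51940, 53347, 40030 and 40364 with vehicle. The groups overlapped over the 8 libraries, but within each sample number both aldosterone libraries were above both vehicle libraries. Its log2 difference was 0.31 (SE 0.128, limma adjusted p = 0.165).

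*Mfap5*, a small glycoprotein bound to fibrillin, followed the same pattern, with 5779, 6013, 4103 and 4389 against 5025, 4698, 3624 and 3360 normalized counts. Its log2 difference was 0.28 (SE 0.131, limma adjusted p = 0.234). The values of both genes were again separate within each sample number only. The share of all genes that separated in this way was not counted.

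*Fbn1* had 80331, 73312, 60090 and 57030 normalized counts with aldosterone against 67270, 68568, 53952 and 57918 with vehicle, and overlapped also within sample number 2. Its log2 difference was 0.12 (95% interval -0.11 to 0.35, limma adjusted p = 0.6). *Fbln1* differed by -0.12 (95% interval -0.24 to -0.003, limma adjusted p = 0.225), with aldosterone libraries from 1287 to 1330 and vehicle libraries from 1356 to 1529 normalized counts.

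Same-numbered libraries of different treatments shared their deviations from the treatment means, so the sample number was also fitted as a replicate block. With this block limma called 8 of the 10 members, 3 higher and 5 lower, beside 8.68% and 8.02% of all genes. The 3 calls gained were *Fbln2* (0.31, SE 0.0408, adjusted p = 5.95e-07), *Mfap5* (0.28, SE 0.0426, adjusted p = 7.1e-06) and *Eln* (-0.36, SE 0.0614, adjusted p = 4.92e-05). For *Fbn1* the adjusted p was 0.0524 and for *Fbln1* 0.103 with the block. P-values under the block measure only the spread left within a sample number.

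**Figure D2:**
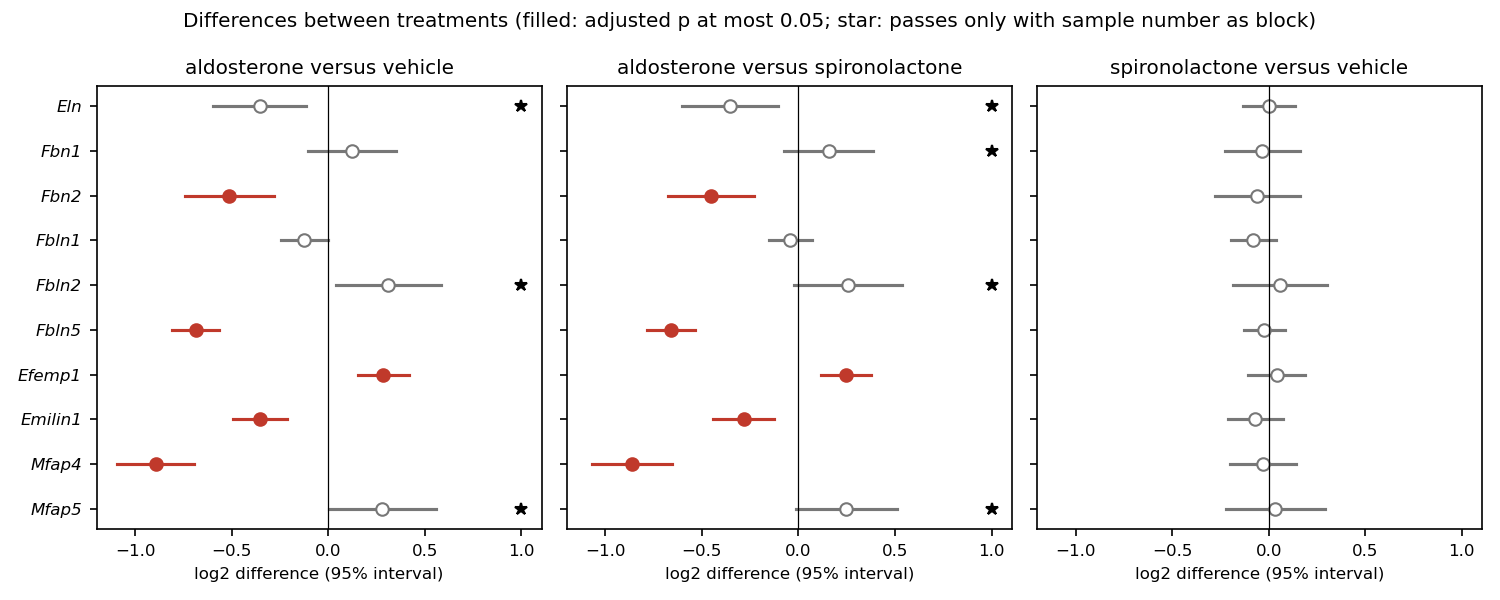
Log2 differences between treatments for the 10 genes, with 95% intervals from limma without a block, in the 3 comparisons; 4 libraries per treatment. Filled points passed an adjusted p of 0.05 and stars mark genes that passed only under the replicate block on sample number. Mfap4, Fbln5, Fbn2, Emilin1 and Efemp1 are filled in both comparisons with aldosterone, and no point is filled for spironolactone against vehicle.

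*Eln*, the gene of tropoelastin itself, differed in another way. Its normalized counts were 20679, 19754, 14474 and 13098 with aldosterone and 22058, 21360, 21288 and 20681 with vehicle. The vehicle libraries were nearly level, the aldosterone libraries of sample number 1 lay just under them, and those of sample number 2 lay far below. The log2 difference over all libraries was -0.36 (SE 0.113, limma adjusted p = 0.0585), and it was 0.0403 by DESeq2 and 0.0846 by edgeR on the recovered reads. Within sample number 1 the log2 difference was -0.10 and within sample number 2 it was -0.61, each from 2 against 2 libraries.

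The difference between these effects, tested as an interaction of treatment and sample number, was -0.50 on the log2 scale (SE 0.0787, 95% interval -0.67 to -0.34). The interaction rests on 2 libraries per treatment and sample number. If the number is a mouse, its p-values do not measure the spread between mice. *Eln* ranked 5 of 27319 genes by the p-value of this interaction, but its adjusted p by limma was 0.116, and 4 genes (0.0146%) and none of the 10 members were called. On the recovered reads the adjusted p for *Eln* was 0.0181 by edgeR and 4.29e-07 by DESeq2, which called 12 and 15 genes in all. In the limma fit restricted to genes averaging at least 10 normalized counts it was 0.019. Without 1 library it ranged from 0.253 to 0.459 by limma. None of the other 9 members passed the interaction test under any of these settings (DESeq2 gave no adjusted p for *Mfap4*), and *Fbn2* differed by -0.51 and -0.52 and *Mfap5* by 0.28 and 0.28 in sample numbers 1 and 2. *Eln* occupies chromosome 5 from 134731447 to 134776177, minus strand (mm39).

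**Figure D3:**
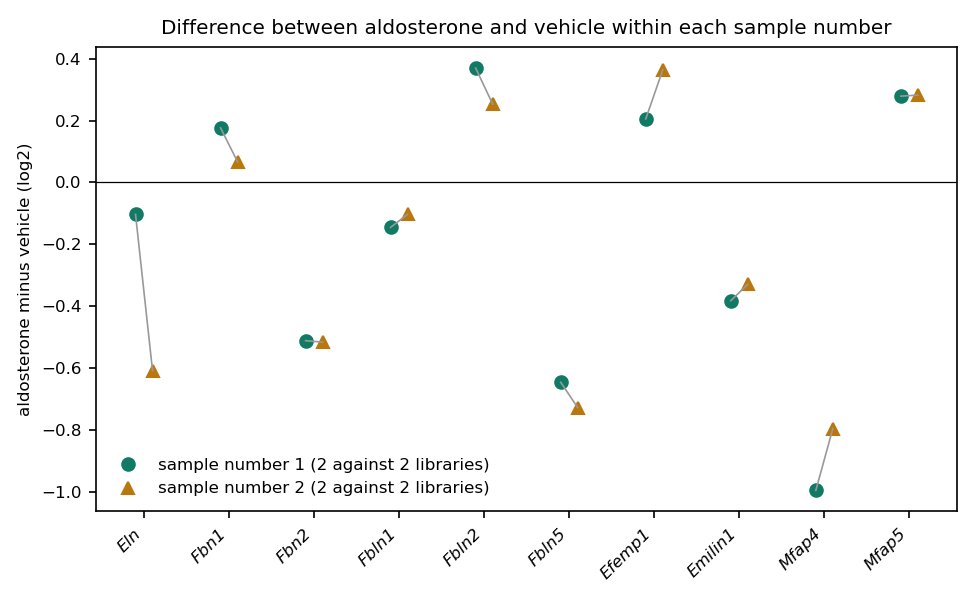
Log2 difference between aldosterone and vehicle within sample number 1 (circles) and within sample number 2 (triangles) for the 10 genes, each from 2 against 2 libraries. The lines join the values of a gene; that of Eln runs from -0.10 to -0.61, and every gene keeps its direction.

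Aldosterone against spironolactone set 2 steroids side by side at the same dose of 1 µM and the same 48 hours, and shares its aldosterone libraries with the comparison above. *Mfap4*, *Fbln5*, *Fbn2* and *Emilin1* were lower and *Efemp1* higher, beside 3.96% and 4.93% of all 27631 genes, or 6.78% and 8.39% of those with a mean of at least 10. *Mfap4* had 286, 283, 362 and 343 normalized counts with aldosterone and 515, 612, 552 and 635 with spironolactone. Its groups were far apart, with a log2 difference of -0.86 (SE 0.0974, limma adjusted p = 8.56e-06).

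*Fbln5* had 9513, 8927, 8273 and 8277 normalized counts with aldosterone and 14400, 13948, 13575 and 13348 with spironolactone. The log2 difference was -0.66 (SE 0.0592, limma adjusted p = 5.47e-07). *Mfap4* and *Fbln5* were called without any single library. *Fbn2* differed by -0.45 (SE 0.105, limma adjusted p = 0.0097), *Emilin1* by -0.28 (SE 0.0749, limma adjusted p = 0.0219) and *Efemp1* by 0.24 (SE 0.0612, limma adjusted p = 0.0155).

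The adjusted p of *Fbn2* and *Emilin1* exceeded the threshold in every fit without 1 library (up to 0.203 and 0.19 by limma). *Efemp1* stayed called only without spironolactone library 2 of sample number 1, with adjusted p from 0.0139 to 0.113. The groups did not overlap for *Efemp1* (above, as for 6.76% of all genes) nor for *Fbln1*, *Fbln5*, *Emilin1* and *Mfap4* (below, as for 6.22%). The aldosterone libraries of *Fbln1* ran from 1326 to 1367 and those with spironolactone from 1380 to 1407, a log2 difference of -0.04 that did not pass (limma adjusted p = 0.727).

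Under the replicate block on sample number 9 of the 10 members were called, 4 higher and 5 lower, beside 7.58% and 6.8% of all genes. *Eln* (-0.35, adjusted p = 5.15e-05), *Fbln2* (0.25, adjusted p = 5.57e-05), *Mfap5* (0.25, adjusted p = 4e-05) and *Fbn1* (0.16, adjusted p = 0.0233) joined the 5 above, by limma. *Eln* had 21308, 20302, 14875 and 13457 normalized counts with aldosterone and 24206, 21314, 22786 and 19677 with spironolactone. As against vehicle, its lowest values were those of the aldosterone libraries of sample number 2.

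None of the 10 passed the test between spironolactone and vehicle. By limma 0% of 27598 genes were called higher and 0% lower, with 1251 genes at an unadjusted p under 0.05, none of them a member. DESeq2 called 13 genes, and limma under the replicate block on sample number called 97 (0.351%), again with no member among them. The log2 differences of the members lay between -0.08 for *Fbln1* (95% interval -0.20 to 0.04) and 0.06 for *Fbln2* (95% interval -0.18 to 0.30). *Mfap4* had 504, 600, 541 and 623 normalized counts with spironolactone and 595, 518, 607 and 592 with vehicle, a log2 difference of -0.03 (95% interval -0.20 to 0.14). *Fbln5* had 14092, 13674, 13309 and 13091 against 14090, 14075, 13379 and 13454, a difference of -0.02 (95% interval -0.13 to 0.09). The libraries of both genes interleaved, and these intervals leave out differences as large as those with aldosterone.

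The sample number separated the elastic fibre genes as well. In a fit over all 12 libraries with treatment as a factor, chosen after the values were seen, 8 of the 10 members differed between sample numbers 2 and 1. They were *Fbn2* and *Emilin1*, higher with number 2, and *Mfap5*, *Fbln2*, *Fbn1*, *Eln*, *Efemp1* and *Fbln5*, lower. Of all 28995 genes 5.07% were called higher and 5.79% lower, or 9.15% and 10.7% of those with a mean of at least 10. Together the 10 genes took from 0.762% to 0.84% of reads in the 6 libraries of sample number 1 and from 0.644% to 0.704% in those of sample number 2.

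*Mfap5* averaged 60.3 RPKM with number 1 and 44.9 with number 2, a log2 difference of -0.46 (SE 0.0336, limma adjusted p = 6.85e-11). *Fbln2* averaged 383 and 288 RPKM, a difference of -0.44 (SE 0.0333, limma adjusted p = 1.26e-10). *Fbn1* averaged 241 and 198 RPKM, a difference of -0.32 (SE 0.0372, limma adjusted p = 4.3e-07). *Fbn2* went the other way, with 31.2 and 41.1 RPKM and a difference of 0.37 (SE 0.0358, limma adjusted p = 2.14e-08). In each of the 3 treatments the libraries of the 2 sample numbers lay apart for these 4 genes and for *Emilin1* and *Fbln5*. Each gap rests on 2 against 2 libraries, and the share of all genes with such gaps was not counted.

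The other differences were smaller, 0.16 for *Emilin1*, -0.15 for *Efemp1*, -0.10 for *Fbln5* and -0.23 for *Eln*. *Eln* differed by -0.56 among aldosterone libraries alone, by -0.05 among vehicle libraries and by -0.10 among spironolactone libraries. Without 1 library its call stayed in 1 of 12 fits, that of *Emilin1* in 6 of 12 and that of *Fbln5* in 11 of 12, and the other 5 genes were called in all 12. *Mfap4* (0.17, limma adjusted p = 0.0879) and *Fbln1* (0.0047, limma adjusted p = 0.97) did not pass. Within a single treatment, with 2 against 2 libraries, no member was called. What the sample number stands for, a mouse or a plate, cannot be told apart here. If it is a mouse, the fit over 12 libraries sets a single mouse against another. Its p-values and intervals then measure the spread between plates and not between mice.

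**Figure D4:**
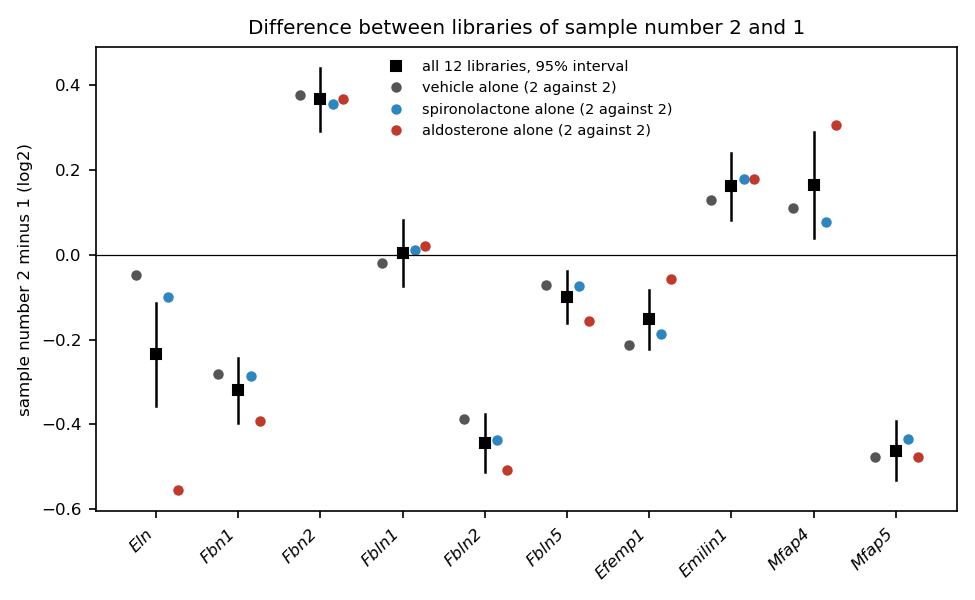
Log2 difference between libraries of sample number 2 and sample number 1 for the 10 genes. Squares are the fit over 12 libraries with its 95% interval, and points are the values within each treatment, 2 against 2 libraries. Fbn2 lies near 0.37 and Mfap5 near -0.46 in every treatment, whereas Eln is at -0.56 with aldosterone and at -0.05 with vehicle.

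Across the 12 libraries the log2 CPM of *Fbn1* ran closely with those of *Fbln2* (Pearson's r = 0.95) and *Mfap5* (r = 0.9), and that of *Mfap4* with *Fbln5* (r = 0.9). *Fbn2* ran with *Emilin1* (r = 0.95) and opposite to *Efemp1* (r = -0.95). These points share treatment, sample number and library, and the values are descriptions. Of 9428 genes with a mean CPM of at least 10, the 5 most like *Mfap4* were *Shox2* (r = 0.982), *Sfrp2* (0.981), *Rnd3* (0.979), *Gas2* (0.975) and *Sytl2* (0.975). Those most like *Fbn1* were *Adamts12* (r = 0.987), *Ggt7* (0.985), *Hip1* (0.981), *Ncam1* (0.977) and *Nav2* (0.972), and those most like *Eln* were *Grin3a* (r = 0.965), *Kctd15* (0.96), *Pus7* (0.954), *Edem1* (0.95) and *Pfkfb3* (0.941).

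A list of 54 other genes of elastic fibre assembly was examined in aldosterone against vehicle, and 50 were in the table. By limma 9 rose and 9 fell, and 32 did not pass, with a median log2 difference of -0.06. The shares of all genes called were 5.68% and 4.74%, as above, and no test of the list was made. Fibulins and microfibril proteins, ADAMTS proteins and integrins each had calls in both directions. Under the replicate block on sample number the counts were 15 and 14, beside 8.68% and 8.02% of all genes.

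Among the cross-linking enzymes 2 of 5 rose, *Loxl3* by 0.38 (SE 0.0692, limma adjusted p = 0.00155) and *Loxl4* by 0.22 (adjusted p = 0.0383). *Lox* itself, the most abundant of them at 1981 RPKM in vehicle, differed by 0.31 (limma adjusted p = 0.115) and passed under the replicate block on sample number (limma adjusted p = 2.99e-06). Among the ADAMTS and ADAMTS-like proteins, several of which act on or bind fibrillin microfibrils, 2 of 9 rose, *Adamtsl4* by 0.63 (limma adjusted p = 0.00016) and *Adamtsl5* by 0.25. *Adamts6* (-0.47, limma adjusted p = 0.000306), *Adamtsl3* (-0.39, limma adjusted p = 0.00034) and *Adamts10* (-0.29, limma adjusted p = 0.00594) fell.

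The integrins, cell surface receptors that bind fibrillins, fibulin-5 or EMILIN-1 among other ligands, held the 2 largest increases among the called genes of the list. *Itga5*, the partner of beta-1 integrin in the fibronectin receptor, averaged 12720 ± 2739 normalized counts with aldosterone and 6670 ± 867 with vehicle (SD, n = 4) and rose by 0.92 on the log2 scale (SE 0.121, limma adjusted p = 6.7e-05). *Itga4* rose by 1.11 from a low level, 35.1 ± 8.82 to 76.0 ± 10.7 normalized counts (limma adjusted p = 0.00226), and *Itga8* rose by 0.39. *Itgav* (-0.32, limma adjusted p = 0.00374) and *Itgb3* (-0.36, limma adjusted p = 0.00583), which pair in the vitronectin receptor, fell.

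Of the other fibulins and microfibril proteins *Emilin2* rose by 0.46 and *Hmcn1* fell by 0.44 on the log2 scale, 1 and 1 of 8 measured. Of 4 latent TGF-beta binding proteins *Ltbp1* fell by 0.20, and of 7 elastolytic proteases *Ctsk*, the gene of cathepsin K, rose by 0.19. In a class of 7 genes headed elastin receptor and secretion, *Fkbp10* and *Slc2a10* fell, by 0.19 and 0.25. The heading is loose and does not give the function of each gene. *Loxl3*, *Adamts6*, *Adamtsl3*, *Adamtsl4*, *Itgb3*, *Itga4* and *Itga5*, 7 of the 18, were called in every fit that left out 1 library, and *Emilin2* in none. Against spironolactone 7 of the list were higher and 5 lower with aldosterone. The shares were 4.93% and 3.96% of all genes, or 8.39% and 6.78% of those with a mean of at least 10. None of the list was called for spironolactone against vehicle, beside 0% and 0% of all genes.

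**Figure D5:**
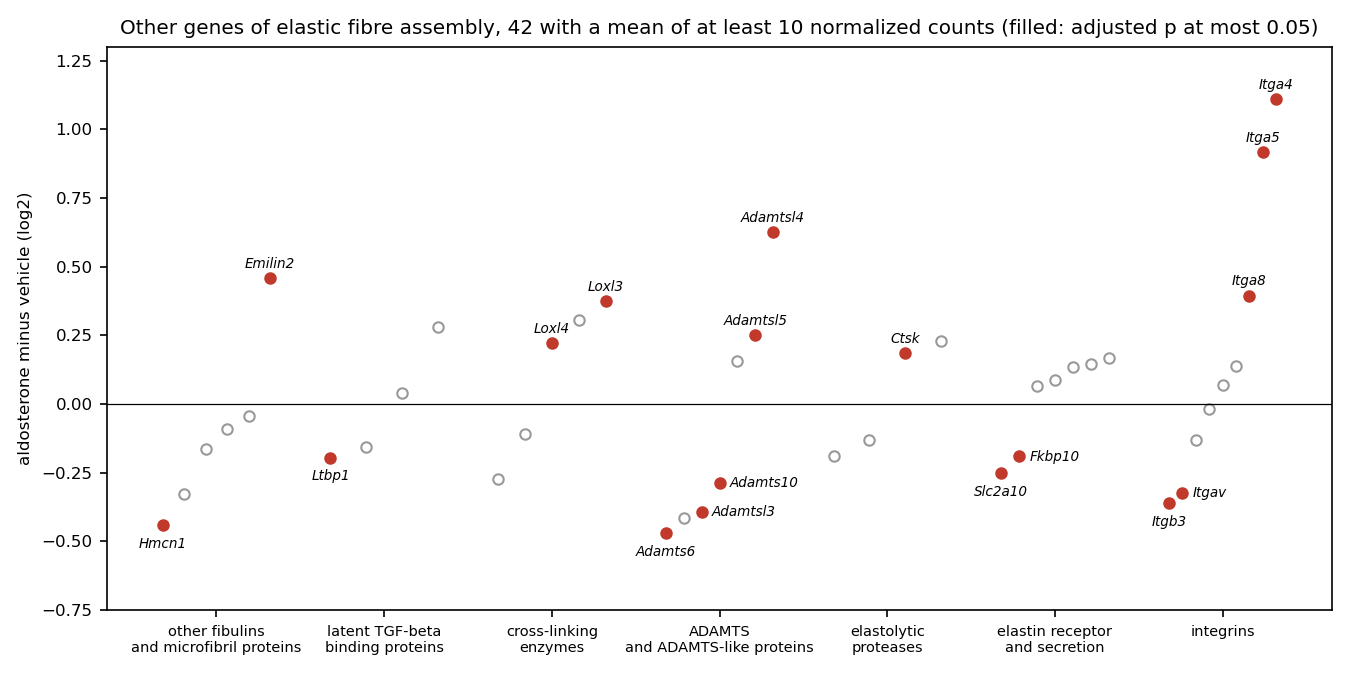
Log2 difference between aldosterone and vehicle (4 libraries each) for the 42 other genes of elastic fibre assembly averaging at least 10 normalized counts, by class. Filled and named points passed an adjusted p of 0.05 by limma, 9 above and 9 below 0; Itga4 and Itga5 are the highest, at 1.11 and 0.92.

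Upstream sequence was at hand in RefSeq (build GRCm38.p6) for 6 of the 10 members. The 250 bases before the annotated start are shown for *Fbln5* (the first of its windows) and *Emilin1*, which fell with aldosterone, and for *Efemp1*, which rose. Capitals mark the half-site AGAACA of steroid receptors, the GC box GGGCGG and TATAAA, each on either strand.
Fbln5 (chr12:101819120-101819369, minus strand): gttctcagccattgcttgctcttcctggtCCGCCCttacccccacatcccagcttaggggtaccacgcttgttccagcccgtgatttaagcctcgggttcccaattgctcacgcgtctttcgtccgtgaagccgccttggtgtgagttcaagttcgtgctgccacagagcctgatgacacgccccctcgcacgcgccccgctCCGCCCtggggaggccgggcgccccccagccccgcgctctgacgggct
Emilin1 (chr5:30913536-30913785, plus strand): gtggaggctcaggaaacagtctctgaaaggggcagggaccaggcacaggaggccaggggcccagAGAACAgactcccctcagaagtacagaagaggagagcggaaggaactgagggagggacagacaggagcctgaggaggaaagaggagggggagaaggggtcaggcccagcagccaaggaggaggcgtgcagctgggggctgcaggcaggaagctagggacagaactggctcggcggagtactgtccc
Efemp1 (chr11:28852955-28853204, plus strand): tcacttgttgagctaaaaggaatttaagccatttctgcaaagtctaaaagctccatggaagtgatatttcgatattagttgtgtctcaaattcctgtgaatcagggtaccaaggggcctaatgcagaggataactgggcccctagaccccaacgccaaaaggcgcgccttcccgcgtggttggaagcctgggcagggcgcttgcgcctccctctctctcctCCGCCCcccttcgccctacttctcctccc

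The window of *Emilin1* held 1 half-site, 186 to 181 bases before the start, and those of *Fbln5* and *Efemp1* held none. Of the members not shown, 1 of 2 windows of *Fbln1* held it and those of *Fbn1* and *Fbln2* did not. AGAACA or its complement was in 16.1% of 32851 windows of this length, and the pair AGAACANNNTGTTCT was in 3 of them (0.00913%) and in none of the members'. The first *Fbln5* window held 2 GC boxes, its other window, not shown, held none, and that of *Efemp1* held 1, beside 32.7% of all windows with any. TATAAA, in 12.4% of all windows, was in none of the 3 shown. The AP-1 motif TGANTCA, not in capitals above, was in 6.75% of all windows. It was in the window of *Efemp1*, 154 to 148 bases before the start, and not in those of *Fbln5* or *Emilin1*. A match of letters in a window of this size is a description and not a binding site.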

How the data were processed

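Poly(A) RNA of 12 fibroblast libraries, 4 per treatment, was sequenced. Per the submitters' processing notes reads were aligned with HISAT2 (version 2.0.5) to mm39 and counted with featureCounts (version 1.5.0-p3); the study's methods name mm9 instead. Positions are given as in the tables, whose gene starts equal those of the mm9-era annotation for 8 of 20676 genes. The strand setting of the counting is not given in the sources used here, so reads of overlapping antisense genes could not be told apart.

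The authors deposited 1 table per pair of treatments, with signal values that are counts per gene after division by DESeq2 size factors, called normalized counts here. The same tables hold the authors' fold changes and p-values, which were not used. Whole reads were recovered from the step of each column (100% of values within 0.1 read; in 2 of 24 columns the step was too near 1 and another table was used). Depth was between 19136923 and 30219185 reads on genes (median 23833379.5). Levels per length are RPKM from the recovered reads.

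limma (version 3.58.1, R 4.3.3) with a variance trend was fitted on log2(normalized count + 1) to all genes of a pair's table, with treatment as the factor and Benjamini-Hochberg adjustment over the table; tables were normalized separately. The call threshold was an adjusted p of 0.05. On the log2(value + 1) scale changes of low genes are understated. Alternatives were edgeR (version 4.0.16) and DESeq2 (version 1.42.0) on recovered reads, TMM scaling, pseudocounts of 0.5 and 5, a mean of at least 10, replicate blocks, leaving out each library and single sample numbers. The tests without a block were checked on simulated libraries, drawn independently and with no difference between sample numbers. The block and the interaction were not checked in this way.

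Deviations of libraries with the same sample number from their treatment means correlated across treatments in each of 24 pairs (r from 0.134 to 0.283, mean 0.219), which pairs the samples; those with the same biological replicate number did not (mean r = -0.00547, from -0.302 to 0.283). The pairing comes from the numbers in the titles.

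All 10 members are named, and of 54 other assembly genes those that passed in aldosterone against vehicle, plus *Lox*, chosen after its value was seen. For *Eln*, *Fbn1* and *Mfap4* the 5 genes with the highest Pearson's r of log2 CPM (prior count 2) are named. The members and lists were chosen with earlier results of these data known. The fit of sample number over all libraries and the alternatives of the interaction were chosen after seeing the data.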

Additional observations from a re-analysis of the deposited data

How the results depend on the processing

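Between aldosterone and vehicle the directions of all 10 members held under every alternative run, and the same was true against spironolactone. Under the replicate block on sample number the members called were 3 higher and 5 lower against vehicle and 4 higher against spironolactone, the genes called in all were 4563, 3974 and, for spironolactone against vehicle, 97, and the other assembly genes were 15 higher and 14 lower; beyond the calls gained by *Eln*, *Fbln2*, *Mfap5* and, against spironolactone, *Fbn1*, the block changed no call of a member. With sample number 1 alone, 2 against 2 libraries, 0 members were called in either direction in both comparisons, with 17 and 4 genes in all and 0 assembly genes; with sample number 2 alone 0 members were higher, 2 and 1 lower, with 888 and 943 genes in all and 3 assembly genes higher and 0 lower. Fewer libraries entered these fits. Without 1 library, members called ranged from 0 to 1 higher and 3 to 4 lower against vehicle (all genes 1766 to 2246, assembly genes 4 to 6 higher and 3 to 8 lower), and from 0 to 1 higher and 2 lower against spironolactone (all genes 1565 to 1865). DESeq2 called 13 genes between spironolactone and vehicle. For the interaction, edgeR, DESeq2 and the mean of at least 10 called 1 member, *Eln*, and 12, 15 and 11 genes in all, pseudocounts of 0.5 and 5 called 2 genes, and every fit without 1 library called 0. For the sample number, 0 members were called within vehicle, aldosterone or spironolactone alone, with 0, 0 and 158 genes in all, and without 1 library 1 to 2 were higher and 4 to 6 lower, with 2232 to 2591 genes in all. Differences near 0 changed sign. Between spironolactone and vehicle that of *Eln* was -0.0246 in sample number 2 alone, and without 1 library it ran from -0.0454 to 0.0532 for *Eln*, -0.104 to 0.019 for *Fbn1*, -0.143 to 0.0285 for *Fbn2*, -0.0176 to 0.145 for *Fbln2*, -0.00839 to 0.0915 for *Efemp1*, -0.0816 to 0.0249 for *Mfap4* and -0.0634 to 0.129 for *Mfap5*. That of *Fbln1* between sample numbers was -0.0184 in vehicle alone and -0.0139 to 0.029 without 1 library. The causes of these changes were not tested. TMM scaling moved the median of all genes by less than 0.1 on the log2 scale in each comparison. Intervals cover only the spread between the plates of the 2 mice.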
